A study of Mus musculus with 6 samples.

Results

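miR-155 was 1 of 334 mouse microRNAs with a probe among the deposited spots, and was taken as the spots whose description names mmu-miR-155, 4 on each of 6 arrays. Total RNA came from mouse embryoid bodies, clumps of embryonic stem cells that have begun to differentiate, harvested on day 7. The RQ group carried human BRCA1 with the missense change R1699Q, the MI group human BRCA1 with M1652I, and the WT group wild-type human BRCA1, with 2 arrays each. All groups shared the strain 129S7/SvEv Brd-Hprt b-m2, and feeder cells had been removed before aggregation. The state of the mouse Brca1 gene and the number of clones per genotype were not stated in the labels. These call the replicates biological without naming separate cultures, so the p-values rest on a spread between arrays that may be technical. On each array the group's RNA was in Cy3 and a reference was in Cy5, named in the labels as wild-type embryoid bodies, with no dye swap. The study compared microRNA levels between the 3 BRCA1 forms.

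miR-155 is cut from a hairpin in the non-coding transcript Mir155hg, once called BIC, and its 5′ arm is the arm that usually accumulates. It is known from B cells, T cells and macrophages, where NF-kB and AP-1 raise the transcript and where the microRNA represses, among others, the phosphatase SHIP1 and the cytokine signalling inhibitor SOCS1. It is also abundant in several lymphomas and breast cancers. BRCA1 is a tumour suppressor of DNA repair, and both missense changes lie in its C-terminal BRCT repeats, which bind phosphorylated partner proteins.

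The mouse hairpin of 65 bases lies at chr16:84714140-84714204 on the plus strand (GRCm38.p6), inside the long non-coding gene Mir155hg at chr16:84713023-84715245. The sequences below, from RefSeq on that build except the probe, which is as deposited, are shown because the seed decides targeting and the probe decides what the array could bind. Capitals mark the seed (bases 2 to 8) in the mature arms, both mature arms in the hairpin, and the complement of the microRNA in the probe.
mmu-miR-155-5p: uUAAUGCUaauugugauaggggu
mmu-miR-155-3p: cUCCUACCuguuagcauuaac
Mir155 hairpin: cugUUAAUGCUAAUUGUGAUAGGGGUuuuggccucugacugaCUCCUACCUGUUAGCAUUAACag
miR-155 probe: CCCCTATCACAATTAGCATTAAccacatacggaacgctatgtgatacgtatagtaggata

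The probe of 60 bases thus reads the 5′ arm. It pairs with 22 of the 23 bases of the mature form, leaving out the last base at the 3′ end, and its other 38 bases are the stem shared by all probes. The seed UAAUGCU occurred in 1 of 1679 mature mouse microRNA names of the RefSeq table, miR-155-5p itself. No other probe that matched that table reads a microRNA of the same seed, and the seeds of unmatched probes were not looked up. Of the other probes, 283 matched a mature sequence of that table over at least 17 bases. Their microRNA parts shared a run of 4 bases with that of miR-155 in the median and of 8 at most. The 3 longest runs, in probes for microRNAs of chromosomes 19, 4 and 17, are shown in capitals, as the probes carry them.
miR-101b: cttcagCTATCACAgtactgtac
miR-101a: cttcagtTATCACAgtactgta
miR-7b: aacaaaATCACAAgtcttcca

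The 3 probes with the longest shared runs did not move as miR-155 did between RQ and WT arrays. The log2 ratio of Cy3 over Cy5 of miR-101b fell by 0.80 (SE 0.15, adjusted p = 0.0142, limma). That of miR-101a fell by 1.13 (SE 0.19, adjusted p = 0.0118). miR-7b differed by 0.01 (SE 0.10, adjusted p = 0.944), with its Cy3 signal not well above background on any RQ or WT array.

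All arrays came from 1 slide and 1 scan. Between 241 and 255 of the 334 probes were well above background in Cy3 and between 262 and 271 in Cy5. The RQ and MI arrays shared a row of the slide and the WT arrays lay in the other row. Slide row therefore cannot be told apart from either mutant against WT, whereas RQ against MI lies within a row. All 10 stem cell marker microRNAs on the array, of the miR-290 and miR-302 clusters, were well above background in Cy3 on both arrays of every group. In the ratio with loess, 3 of these 10 were called lower in RQ minus WT (miR-294 at -1.51, miR-295 at -1.16 and miR-302d at -0.54), beside 13.9% of all tested. In MI minus WT 3 were called lower (miR-302 at -1.79, miR-302d at -1.61 and miR-367 at -0.79), beside 6.46% of all tested. In both comparisons 0 of the 10 were called higher. In RQ minus MI 3 were called higher (miR-302 at 1.33, miR-302d at 1.08 and miR-367 at 0.88), beside 3.06% of all tested. There 1 was called lower, miR-294 at -1.14, beside 7.82%. In Cy3 alone limma called 0 of the 10 in RQ minus WT (3 lower at an unadjusted p under 0.05), beside 7.82% higher and 17.7% lower over all tested. In Cy5 alone 2 of the 10 were called higher, miR-294 at 0.84 and miR-295 at 0.34, beside 8.84%, with the limit on Cy5 calls given below. Of 6 fibroblast markers, 2 were called lower in RQ minus WT, miR-21 at -1.35 and miR-145 at -0.68, beside 13.9% of all tested. The others, not called, were miR-143 at 0.33, miR-214 at 0.13, miR-199b at 0.09 and miR-199a at 0.01, with a list median of 0.05. In Cy3 miR-21 and miR-145 were again called lower, beside 17.7% of all tested. There miR-214 was called higher at 0.75, beside 7.82%. The part of these cells in the miR-155 result was not tested. The 1 endothelial marker on the array, miR-126-5p, was above background on no array in Cy3. Cy3 and Cy5 disagreed on the WT arrays, whose labels give the same source for both channels, so the ratios below are compared between groups and not taken as levels relative to wild type.

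The miR-155 spots were bright in Cy3 on the RQ arrays and dim on the others. Net intensity, the mean of a spot's pixels minus the local background, was 908, 701, 142 and 681 in Cy3 at the 4 positions of RQ replicate 1. At the same positions RQ replicate 2 had 828, 334, 419 and 537. The 8 RQ spots all lay above the 16 spots of the other arrays, which spanned 35.5 to 96.0.

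The MI spots were even. MI replicate 1 had 77.0, 80.0, 75.0 and 67.0 net Cy3, and MI replicate 2 had 71.0, 64.0, 62.0 and 75.0. The WT spots had 35.5, 48.0, 64.0 and 48.0 on replicate 1 and 35.5, 49.0, 96.0 and 43.6 on replicate 2. MI and WT spots overlapped, with medians of 73.0 in MI and 48.0 in WT. Negative control spots, which match no microRNA, averaged 73.2 and 81.3 net Cy3 on the RQ arrays and 57.4 and 63.5 on the MI arrays, against 54.2 and 48.2 on the WT arrays. Their part in the miR-155 values was not tested. The local background at the miR-155 spots lay between 51.0 and 57.0 in Cy3 on RQ arrays, between 54.0 and 57.0 on MI arrays and between 53.0 and 58.0 on WT arrays.

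By the scanner's own test, 8 of 8 miR-155 spots were well above background in Cy3 on RQ arrays and 7 of 8 on MI arrays, against 3 of 8 on WT arrays. In Cy5 all 24 spots passed it. With the rule used here, over 0.5 of a probe's spots, miR-155 was measured in Cy3 on 2 of 2 RQ arrays and 2 of 2 MI arrays, and on 0 of 2 WT arrays.

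The spots of a probe sit at separate places on the array, and the RQ values differed between them. On RQ replicate 1 the brightest miR-155 spot was 6.39 times the dimmest in Cy3 and on RQ replicate 2 it was 2.48 times, against 1.19 and 1.21 times on the MI arrays and 1.80 and 2.70 times on the WT arrays. The position at row 76 and column 10 was the dimmest on RQ replicate 1, with 142 against 419 on RQ replicate 2. At row 45 and column 66 both RQ arrays gave their brightest spot, 908 and 828. The lowest RQ spot, 142, stood above the 62.0 to 96.0 that the other 4 arrays gave at its own position. Net intensities are not scaled between arrays.

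The reference channel of the RQ arrays was brighter at the miR-155 spots as well, by less. Net Cy5 was 242, 188, 91.0 and 156 on RQ replicate 1 and 215, 147, 148 and 164 on RQ replicate 2. The 16 MI and WT spots spanned 87.0 to 122, from 88.0 to 113 in MI and from 87.0 to 122 in WT. Of the RQ spots, only that at row 76 and column 10 on replicate 1 lay within this span. Over unmarked spots, net Cy5 averaged 139.5 and 147.0 on the RQ arrays and 102.5 and 98.5 on the MI arrays, against 105.5 and 104.8 on the WT arrays.

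**Figure D1:**
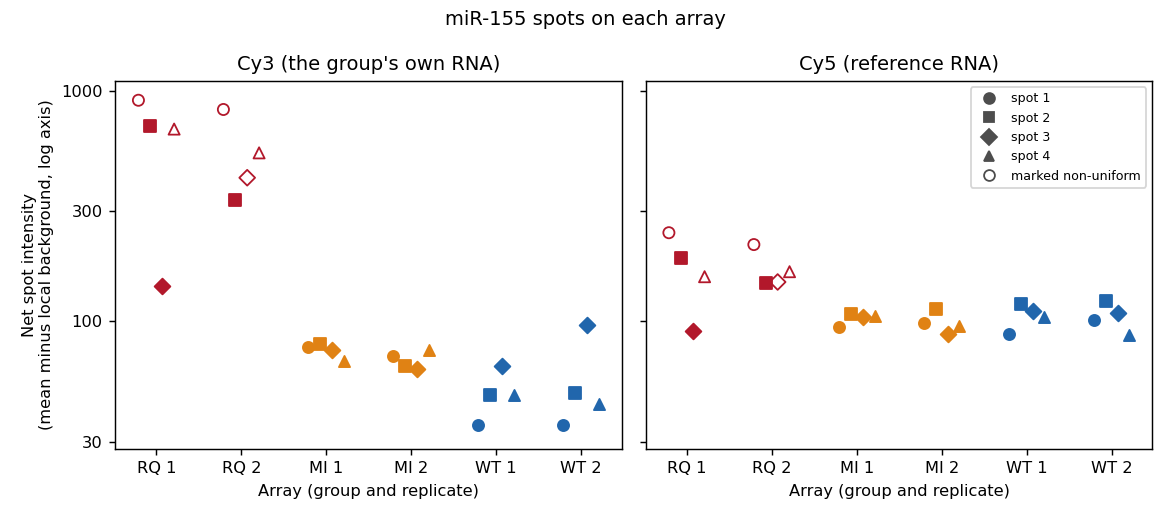
Net intensity of every miR-155 spot (log axis) by array, in Cy3 on the left and Cy5 on the right. Symbols mark the 4 positions and open symbols the spots that the scanner marked as non-uniform. The 8 RQ spots lie at 142 to 908 in Cy3, above the 35.5 to 96.0 of the MI and WT spots. In Cy5 they lie at 91.0 to 242, against 87.0 to 122.

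The scanner marked 5 of the 8 RQ spots of miR-155 as non-uniform in Cy3, meaning that intensity varied over the spot more than its noise model allows. They were the spots with 908 and 681 net Cy3 on replicate 1 and those with 828, 419 and 537 on replicate 2. On the MI and WT arrays 0 of the 16 spots were marked. Spots are removed once marked, so the normalised values below rest on 2 spots of RQ replicate 1, with 701 and 142, and on 1 spot of RQ replicate 2, with 334. The unmarked spot of RQ replicate 2 was its dimmest, and those of RQ replicate 1 were its dimmest and its next to brightest.

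The variation within the spots can be read from their 30 to 39 pixels. The SD over pixels was 30.6% to 85.3% of the mean in Cy3 on the RQ spots and 17.4% to 24.5% on the MI spots, against 16.4% to 39.9% on the WT spots. Using the median pixel in place of the mean, which a few bright pixels move less, the RQ spots had 128 to 800 net Cy3, against 33.0 to 81.5 on the other arrays, still without overlap. In Cy5 the median pixel gave 81.0 to 192 on RQ arrays, against 82.0 to 125 on the others, with overlap.

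Cy3 and Cy5 also varied together over the pixels of the RQ spots. The correlation of both dyes over a spot's pixels, a description of that spot, was 0.29 to 0.70 on the 8 RQ spots, with a median of 0.62. On MI spots it was -0.23 to 0.25 with a median of 0.18, and on WT spots -0.14 to 0.47 with a median of 0.04. The 5 marked RQ spots had 0.62 to 0.70 and the 3 unmarked ones 0.29 to 0.39. Other microRNA spots in the same range of net Cy3 had a median of 0.179 on RQ replicate 1 (503 spots) and 0.182 on RQ replicate 2 (548 spots). Over 0.6 lay 7.75% of those on replicate 1 and 4.01% on replicate 2.

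Among 334 probes, miR-155 was the 1 probe with at least 2 of its 4 spots marked non-uniform in Cy3 on both RQ arrays. On either RQ array 4 probes met this, miR-155, miR-134, miR-670 and miR-721, and on any MI or WT array 2 did, miR-383 and miR-721. These names were chosen after their values were seen. Non-uniform Cy3 spots numbered 28 and 11 on the RQ arrays and 5 and 8 on the MI arrays, against 5 and 2 on the WT arrays, of 1336 each. What makes these spots uneven was not tested.

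**Figure D2:**
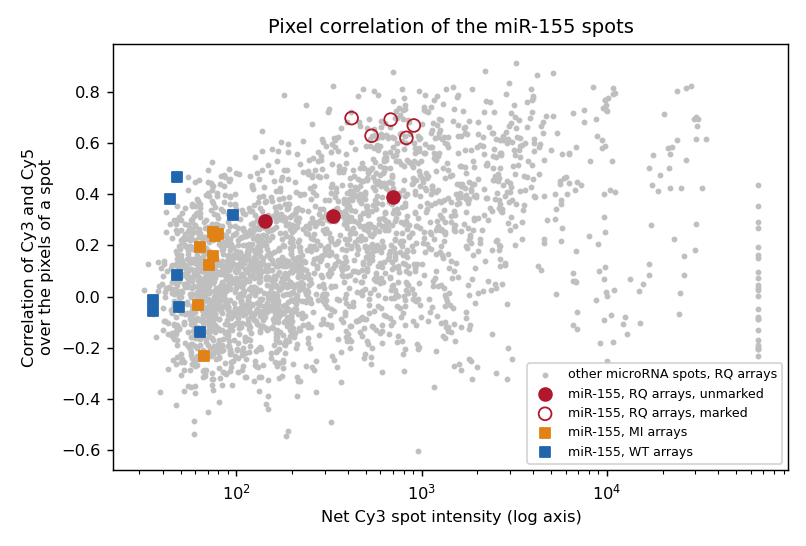
Correlation of Cy3 and Cy5 over the pixels of a spot against the spot's net Cy3 intensity (log axis). Grey points are other microRNA spots of the RQ arrays above a net intensity of 10. The 5 marked miR-155 spots of the RQ arrays lie at 0.62 to 0.70 and the 3 unmarked ones at 0.29 to 0.39, and the MI and WT spots scatter between -0.23 and 0.47.

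The ratio of each spot as the authors deposited it gave the same separation. The deposited log10 ratio of processed Cy5 over Cy3 at the miR-155 spots ran from -0.201 to 0.488 on RQ arrays, with 6 of 8 below 0. It ran from 0.788 to 1.19 on MI arrays and from 0.573 to 1.57 on WT arrays. A lower value means relatively more Cy3, and RQ did not overlap with MI or WT, whereas MI lay within the WT range. The scanner software gives each spot's ratio a p-value against 1, which describes that spot and not a spread between arrays. This p-value reached from 1.88e-07 to 0.912 on the RQ spots and was 9.57e-10 or lower on the other 16.

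After normexp background correction, loess normalization and removal of marked spots, the log2 ratio of Cy3 over Cy5 at the miR-155 probe stood at 0.44 and 0.10 on the RQ arrays and -0.75 and -0.93 on the MI arrays, against -1.12 and -1.04 on the WT arrays. Both RQ values lay above all 4 others, and both MI values lay above both WT values. Group means were 0.27 ± 0.24 in RQ and -0.84 ± 0.13 in MI, against -1.08 ± 0.05 in WT (SD, n = 2 each).

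miR-155 rose in RQ against WT by 1.35 ± 0.15 in the fit (log2 ratio, SE, adjusted p = 0.00808, limma). Because its Cy3 signal was well above background on 0 of 2 WT arrays, this is the size at the background setting used and no fold is given for the ratio. It rose against MI by 1.11 ± 0.15 (adjusted p = 0.0157, 95% interval 0.74 to 1.48). MI differed from WT by 0.24 ± 0.15, which did not pass (adjusted p = 0.286), with an interval of -0.13 to 0.61. These comparisons share the RQ, MI and WT arrays between them and are not independent of each other.

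Calls were common in these comparisons. The fit called 63 of 294 tested microRNAs for RQ against WT, 21.4%, with 7.48% called higher and 13.9% lower. It called 15.6% for MI against WT (9.18% higher and 6.46% lower) and 10.9% for RQ against MI (3.06% higher and 7.82% lower). The median change over all tested microRNAs was 0.03 for RQ minus WT, 0.11 for MI minus WT and -0.10 for RQ minus MI. By size, from the highest, the miR-155 change ranked 3 of 294 in RQ minus WT, 105 in MI minus WT and 4 in RQ minus MI. Its neighbours in RQ minus WT were miR-449, a microRNA of ciliated cells, at 1.37 ± 0.19 and miR-151 at 1.00 ± 0.13, so miR-155 and miR-449 were within each other's error. Without RQ replicate 1 the fit called 5 microRNAs for RQ minus WT, without RQ replicate 2 it called 40, and miR-155 passed in both. Median centring instead of loess turned the split of calls to 47 higher and 20 lower, from a fit in which miR-155 was at 1.44.

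The size of the change depended on how the dim Cy3 values were treated. Subtracting the local background in place of normexp gave 2.34 for RQ minus WT, a smaller normexp offset of 16 gave 1.92, and the scanner's processed signals gave 3.73, while no background correction gave 1.19. With the processed signals the median over all tested microRNAs moved to -0.26. With marked spots kept the change was 1.76, and with the median of all 4 spots 1.86. In each of these the adjusted p was under 0.05, and over all 20 alternatives it ranged from 4.02e-05 to 0.0473.

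The size of RQ minus MI moved little when an array was left out. Its p-value did not pass without an RQ or MI array, and passed without either WT array. It was not called without MI replicate 1 (1.20, adjusted p = 0.0682), MI replicate 2 (1.02, adjusted p = 0.119), RQ replicate 1 (0.94, adjusted p = 0.0702) or RQ replicate 2 (1.28, adjusted p = 0.0776). These 4 fits called at most 1 microRNA of all tested for RQ minus MI, so their p-values say nothing about the stability of the miR-155 result. The position at row 55 and column 48 was the only one of the 4 unmarked on all arrays. There RQ minus MI was 1.54, which did not pass (adjusted p = 0.0587). MI minus WT passed in 1 of 20 alternatives, local background subtraction, at 0.60 (adjusted p = 0.0399). Its value was 1.03 with processed signals (adjusted p = 0.0791), 0.44 with the smaller offset and 0.15 without MI replicate 1.

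Each channel was then fitted alone. For miR-155 the log2 Cy3 intensity came to 8.03 and 8.03 on the RQ arrays and 6.71 and 6.44 on the MI arrays, against 6.22 and 6.43 on the WT arrays. RQ lay above all others, and the MI values both lay above the WT values, by little for MI replicate 2. The change was 1.70 ± 0.14 for RQ minus WT (SE, adjusted p = 0.00316) and 1.45 ± 0.14 for RQ minus MI (adjusted p = 0.00636), while MI minus WT was 0.25 ± 0.14 and did not pass (adjusted p = 0.274). In Cy3 the fit called 25.5% of tested microRNAs for RQ against WT (7.82% higher and 17.7% lower). It called 10.5% for RQ against MI (3.4% higher and 7.14% lower) and 13.3% for MI against WT (5.1% higher and 8.16% lower). Without RQ replicate 1 the Cy3 calls for RQ minus WT numbered 16, against 75 with all arrays. Without MI replicate 1 or MI replicate 2 those for MI minus WT numbered 1 and 0 (limma, 51 and 65 at an unadjusted p under 0.05), against 39, and those for RQ minus MI 2 and 1, against 31. Without MI replicate 2, RQ minus MI of miR-155 in Cy3 was 1.32 (adjusted p = 0.0763). Its MI minus WT value was 0.11 without MI replicate 1, 0.15 without WT replicate 1, 0.38 without MI replicate 2 and 0.84 with processed signals, called in none of these. Since no WT array gave miR-155 well above background in Cy3, the RQ Cy3 level is given as a bound at this setting. It was 3.26-fold, from means of 8.03 in RQ and 6.33 in WT. This bound takes the WT value itself, which lay above the lowest signal measured on the arrays, and is open to dye bias because no dye was swapped. With marked spots kept the bound was 4.89-fold. The 3.26-fold is not a minimum over settings. The log2 Cy3 change of 1.70 became 1.48 with median pixels and 1.60 without WT replicate 1.

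In Cy5 the log2 intensity came to 7.59 and 7.92 on the RQ arrays and 7.46 and 7.37 on the MI arrays, against 7.34 and 7.47 on the WT arrays. Both RQ values lay above the others, the higher one resting on 1 spot, and MI and WT overlapped. The change was 0.35 ± 0.12 for RQ minus WT and did not pass (adjusted p = 0.0782, unadjusted p = 0.0295), where 27.9% of tested microRNAs were called in Cy5 (8.84% higher and 19% lower). It passed with marked spots kept (0.53, adjusted p = 0.0214), and was 0.13 with processed signals (adjusted p = 0.575) and 0.19 without RQ replicate 2 (adjusted p = 0.170). A fit with fewer arrays has fewer degrees of freedom, whose part in the number of calls was not tested. The Cy5 calls over all microRNAs moved in number with the arrays fitted. For RQ minus WT they were more numerous without RQ replicate 2 and fewer in the other fits given here. For RQ minus WT they numbered 82 with all arrays, 0 without WT replicate 2 (limma, 74 unadjusted), 3 without WT replicate 1, 7 without RQ replicate 1 and 2 with processed signals, a limit on every Cy5 call below. The Cy5 change of miR-155 was 0.34 ± 0.12 for RQ minus MI (adjusted p = 0.320, with 1.7% called) and 0.01 ± 0.12 for MI minus WT (adjusted p = 0.960, with 0.34% called). In the order of Cy5 changes miR-155 ranked 41 of 294, between miR-185 and miR-103, both at 0.35 to 0.37.

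**Figure D3:**
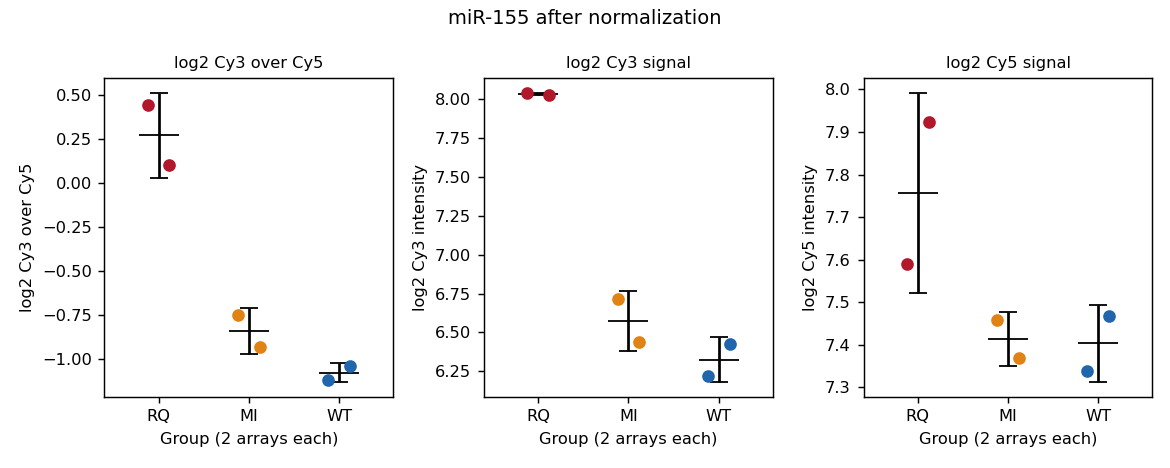
Normalised values of miR-155 on each array by group, as the log2 ratio of Cy3 over Cy5, the log2 Cy3 intensity and the log2 Cy5 intensity, each on its own axis. Points are arrays, and black lines are the mean ± SD of 2. RQ lies above MI and WT in each panel, by 1.70 over WT in Cy3 and by 0.35 in Cy5.

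miR-155 was among 23 microRNAs called higher in Cy3 for RQ minus WT. In the order of Cy3 changes it ranked 3, between miR-302c*, of a stem cell cluster, at 1.77 and miR-184 at 1.57. The rank was 9 without WT replicate 1 or RQ replicate 2, 6 with median pixels and 1 with marked spots kept, and it rests on WT values not above background. Of the 23, 9 were also called higher in Cy5, among them miR-302c* (1.24 in Cy5) and miR-184 (1.41). For both of these the ratio was not called, at 0.54 and 0.15. Called higher in the ratio were 14 of the 23, and 4 of the 23 were called higher in Cy3, Cy5 and the ratio. miR-155 was called in Cy3 and in the ratio.

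The comparators miR-652, miR-361, miR-449 and miR-151, chosen from earlier results of these data, split by channel. For RQ minus WT, miR-652 was 2.22 in Cy3 and 0.51 in Cy5 and miR-361 was 1.41 in Cy3 and 0.56 in Cy5, called higher in both channels. miR-449 was 0.92 in Cy3 and -0.45 in Cy5, called in opposite directions. miR-151 was 0.88 in Cy3 (called) and -0.12 in Cy5 (not called). With 1.70 in Cy3 and 0.35 in Cy5, miR-155 had a Cy5 change above 0 like the first pair, short of the threshold.

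**Figure D4:**
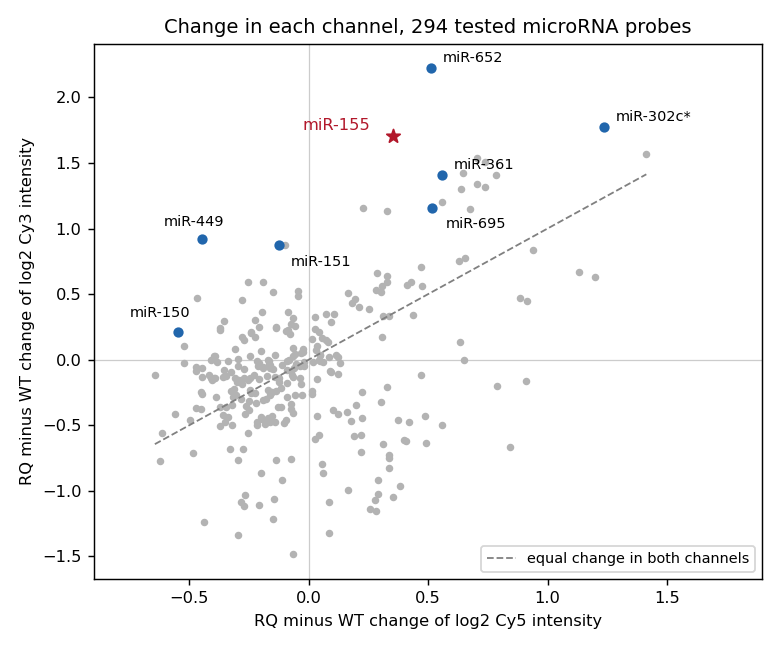
RQ minus WT change of log2 Cy3 intensity against that of log2 Cy5 intensity for the 294 tested probes, with named microRNAs in blue and miR-155 as a red star. On the dashed line both channels changed equally. miR-155 lies at 1.70 in Cy3 and 0.35 in Cy5, and miR-652 above it at 2.22 and 0.51.

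The 6 probes whose ratio followed that of miR-155 most closely over the 6 arrays were found by the Euclidean distance between log2 ratios centred on each probe's mean. They were miR-361 (distance 0.59, Pearson r 0.94), miR-151 (0.64, r 0.93), miR-449 (0.65, r 0.90), miR-150 (0.72, r 0.97), miR-695 (0.85, r 0.92) and miR-302c* (0.86, r 0.87). The median distance over the 293 other tested probes was 1.59. All of these values share the 6 arrays and the same reference channel, and r is given as a description. The mature sequences of the 4 with an entry in the RefSeq table (GRCm38.p6) show, with seeds in capitals, that none shares the seed of miR-155.
miR-361: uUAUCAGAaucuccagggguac
miR-449: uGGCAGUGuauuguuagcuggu
miR-695: aGAUUGGGcauaggugacugaa
miR-302c*: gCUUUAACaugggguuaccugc

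Their mature forms lie at chrX:113074867-113074888 on the minus strand (miR-361) and, on the plus strand, at chr13:113037549-113037570 (miR-449), chr2:155356831-155356852 (miR-695) and chr3:127545368-127545389 (miR-302c*). miR-361 had log2 ratios of 0.80 and 0.11 on the RQ arrays and -0.26 and -0.36 on the MI arrays, against -0.34 and -0.45 on the WT arrays. Its RQ minus WT change was 0.85 ± 0.23 (adjusted p = 0.0472). Like miR-155 it was higher on RQ replicate 1 than on replicate 2.

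miR-150, a microRNA of mature lymphocytes, was at -2.21 and -2.27 on the RQ arrays and -2.66 and -2.86 on the MI arrays, against -3.11 and -2.89 on the WT arrays. Its ratio rose by 0.76 ± 0.13 in RQ against WT (adjusted p = 0.0121). Its Cy3 intensity was 0.21 higher, which did not pass (adjusted p = 0.307), and its Cy5 intensity fell by 0.55 (adjusted p = 0.0258). The ratio of miR-155 and that of miR-150 were thus both called higher, with the difference of miR-155 in Cy3 and that of miR-150 in Cy5. miR-695 rose by 0.64 ± 0.17 in the ratio (adjusted p = 0.0471), with both channels called higher and its Cy3 signal well above background on 0 of 2 WT arrays.

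Blood cell microRNAs, among which miR-155 is often counted, gave 1 called higher and 1 called lower of 8 tested in RQ minus WT, beside 7.48% and 13.9% of all tested. Their median ratio change was 0.19, against 0.03 over all tested. The one called higher was miR-150. miR-451, an erythroid microRNA, fell by 1.09 ± 0.16 (adjusted p = 0.00839), on a probe whose Cy5 signal was saturated. miR-486, also erythroid, was at 0.50 ± 0.14 (adjusted p = 0.0509), and miR-146, an NF-kB target that restrains innate signalling, at 0.42 ± 0.13 (adjusted p = 0.0689). In Cy3, miR-486 was well above background on 0 of 2 RQ arrays and miR-146 on no array. In Cy3 alone limma called 0 of the 8 higher (0 at an unadjusted p under 0.05) and 1 lower, beside 7.82% and 17.7% of all tested. In Cy5 alone it called 0 higher (1 unadjusted) and 5 lower, beside 8.84% and 19%, where without WT replicate 2 it called 0 of all microRNAs. Cy5 changes were -0.55 for miR-150, -0.52 for miR-486 and -0.47 for miR-146, whose ratio changes were above 0. For miR-451, whose ratio fell, the Cy5 change was 0.33. Cy3 changes of these were 0.21 (miR-150), -0.02 (miR-486), -0.06 (miR-146) and -0.75 (miR-451). The ratio is Cy3 over Cy5, so a Cy5 change enters it with the opposite sign. What made Cy5 differ was not tested.

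Of 7 blood markers named for the cell type check, 6 were on the array, miR-142-3p not among them. They were well above background in Cy3 on both arrays for 3 in RQ and 4 in MI, against 4 in WT. Their summed net Cy3, not scaled between arrays, was 1331 and 1275 on the RQ arrays and 1034 and 1173 on the MI arrays, against 1058 and 1097 on the WT arrays. Net Cy3 of the liver marker miR-122a was likewise 567 and 552 on the RQ arrays, against 311 and 297 on the WT arrays. Its normalised Cy3 change was 0.02 (adjusted p = 0.967, limma), so the sums are not read as levels. In normalised Cy3, 0 of the 6 blood markers were called higher in RQ minus WT and 1 lower, miR-451 at -0.75, beside 7.82% and 17.7% of all tested. In bulk samples a change in the number of cells of a type and a change of RNA per cell cannot be told apart, and the part of blood cells in the miR-155 result was not tested.

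NF-kB responsive microRNAs, a group to which miR-155 belongs, gave 0 called higher (limma, 2 unadjusted) and 2 called lower of 6 tested in RQ minus WT, beside 7.48% and 13.9% of all tested, with a median of 0.12. miR-125b fell by 1.39 ± 0.24 (adjusted p = 0.0115) and miR-21, a microRNA of fibroblasts and many tumours, fell by 1.35 ± 0.22 (adjusted p = 0.0112). miR-146 is given above, and miR-132, a CREB-driven microRNA of neurons and immune cells, was at 0.39 ± 0.12 (adjusted p = 0.0667). Neither was well above background in Cy3 on any array. Their Cy3 changes were -0.06 each, and their Cy5 changes were -0.47 for miR-146 and -0.45 for miR-132, both called lower. In Cy3 alone miR-125b and miR-21 were again called lower, with 0 of the 6 higher (0 unadjusted), beside 17.7% lower and 7.82% higher over all tested. In Cy5 alone limma called 4 of the 6 lower and 0 higher (2 unadjusted), beside 19% and 8.84%, with the limit on Cy5 calls given above.

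Neighbouring microRNA genes on chromosome 16 did not move with miR-155. On the side of lower coordinates the nearest with a probe was miR-125b, 7.07 Mb away, whose mature sequence is also made from a copy on another chromosome and whose fall is given above. On the other side it was miR-802, 8.66 Mb away, which differed by 0.09 ± 0.11 (adjusted p = 0.567) and whose Cy3 signal passed the background test on no array.

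**Figure D5:**
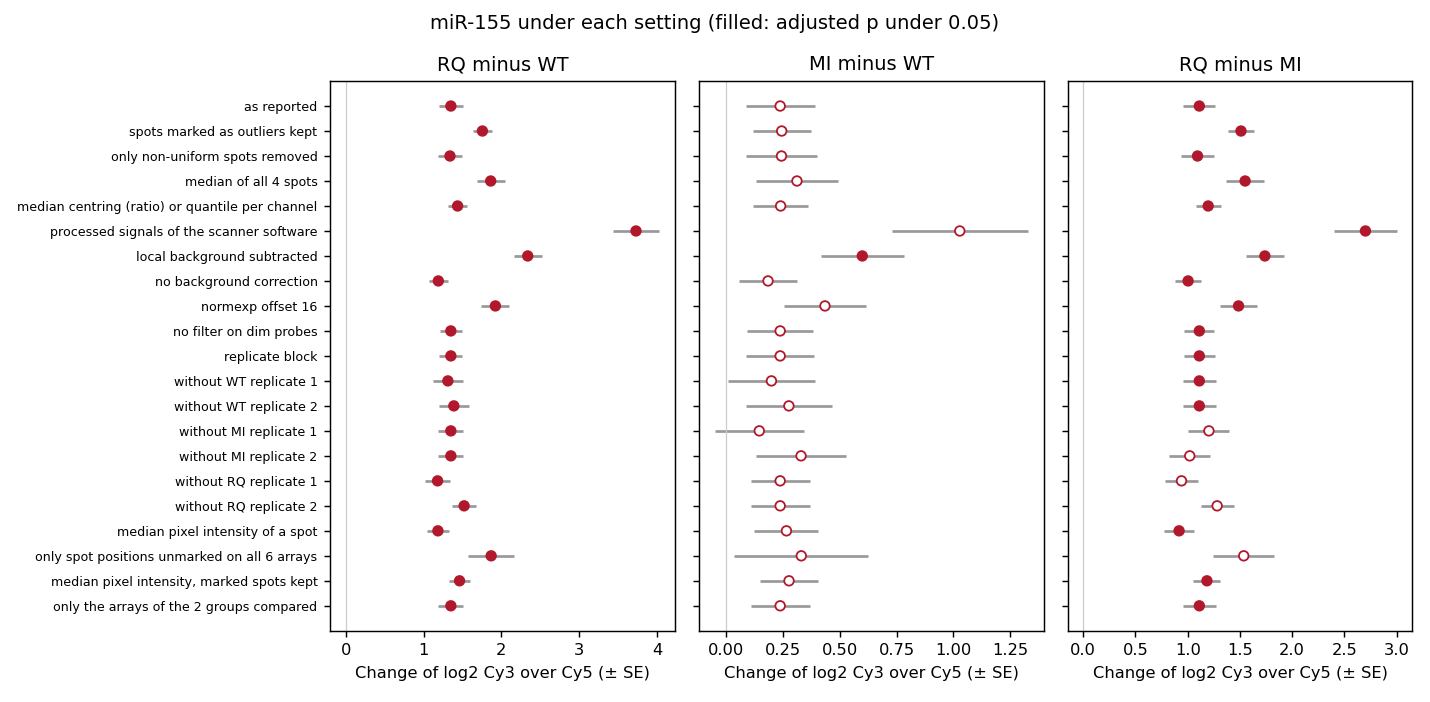
Change of the miR-155 log2 ratio of Cy3 over Cy5 (± SE) in the 3 comparisons as reported and under 20 alternatives. Filled points have an adjusted p under 0.05. RQ minus WT is filled throughout, from 1.18 to 3.73. MI minus WT is filled only at 0.60 with local background subtraction. RQ minus MI is open without either RQ array or either MI array and with the position unmarked on all arrays.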

How the data were processed

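Embryoid body RNA was measured on 6 two-colour Agilent arrays. Feature Extraction 9.5.1.1 of Agilent made the scanner files, per the file headers. These hold mean and median pixel intensity and local background intensity of each dye on a linear scale, the log10 ratio of processed Cy5 over Cy3, its p-value, and as further score values the pixel correlation and outlier marks, all per the file headers. Labelling used the dyes Hy3 and Hy5, per the labels, whose channels are named Cy3 and Cy5. The deposited value table equalled minus the scanner log10 ratio (largest difference 0), so it is Cy3 over Cy5, with a median of 0 in each column. Files listed 1932 of 14712 features, and the others were not analysed here.

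In limma 3.58.1 (R 4.3.3), normexp with an offset of 50 corrected the background, and loess within arrays, with control and marked spots at weight 0, scaled both dyes to each other. Marked spots (non-uniform or population outliers) were removed, 60 to 99 per array, and the rest averaged per probe. Single channels were additionally scaled with Aquantile. Of 334 probes, 294 entered the test, having on at least 2 arrays over 0.5 of their spots well above background in Cy3 or Cy5. The fit used all 6 arrays, lmFit and eBayes, with 3 residual degrees of freedom and 2.99 from the prior. Calls have a p under 0.05 after Benjamini-Hochberg adjustment over the 294. The number of arrays limits the precision. The fit was tested on simulated arrays. Alternatives changed the background, scaling, marked spots, dim-probe filter, arrays and replicate block.

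The members and lists were chosen with earlier results of these data known. Named besides miR-155 were, by rule, the 6 closest probes, up to 4 members with the largest RQ minus WT change of the blood and NF-kB lists, the 3 longest shared probe runs, genome neighbours, neighbours in the order of change and 4 comparators.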

Additional observations from a re-analysis of the deposited data

How the results depend on the processing

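miR-155 was called in RQ minus WT under all 20 alternatives for the ratio (1.18 to 3.73) and all 14 for Cy3 (1.48 to 3.92). For the ratio in RQ minus MI, the 6 fits without 1 array gave 0.94 to 1.28, and the single position unmarked on all arrays gave 1.54 (adjusted p = 0.0587). In Cy3 leaving out arrays gave 1.32 to 1.60 for RQ minus MI. For MI minus WT, local background subtraction gave a call at 0.60. In Cy5, RQ minus WT was called with marked spots kept (0.53), at the unmarked position (0.38) and with median pixels and marked spots kept (0.39), and was 0.13 with processed signals, 0.25 with quantile scaling and 0.19 to 0.50 without 1 array. Cy5 MI minus WT, at 0.01, turned to -0.055 with quantile scaling, -0.11 with processed signals and -0.030 at the unmarked position, and was -0.053 to 0.074 without 1 array, called in none of these. The Cy3 bound was 2.29 (log2) with marked spots kept.

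Counts of called microRNAs moved more. RQ minus WT gave 41 with median pixels and marked spots kept and 5 to 60 without 1 array. MI minus WT gave 73 with local background subtraction, 29 with median pixels and marked spots kept, 27 from the arrays of both groups alone and 6 to 63 without 1 array. RQ minus MI gave 14 with marked spots kept, 12 with population outliers kept, 18 with the median of all 4 spots, 7 without background correction, 11 at unmarked positions and 10 with median pixels and marked spots kept. Without 1 array RQ minus MI gave 0 to 48 (limma, 47 to 90 at an unadjusted p under 0.05). The cause of these shifts was not tested, nor was the part of the fewer degrees of freedom in fits with fewer arrays. With median centring the calls split into 17 higher and 21 lower for MI minus WT and 19 and 12 for RQ minus MI. With processed signals they split into 9 and 23 for MI minus WT and 11 and 16 for RQ minus MI. Processed signals also moved the median change over all probes to -0.05 in MI minus WT, and median centring moved it to 0.06 in RQ minus MI.

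With the replicate number as a block, miR-155 stood at 1.35 for RQ minus WT (adjusted p = 0.00547, 59 called), 0.24 for MI minus WT (39 called) and 1.11 for RQ minus MI (38 called), and no miR-155 call changed. Replicate differences correlated across probes at 0.12 between RQ and WT, 0.18 between MI and WT and 0.04 between RQ and MI, and nothing in the labels pairs the numbers. The alternatives with median pixels and with unmarked positions were chosen after seeing the data. With 2 arrays a group, and 1 or 2 usable miR-155 spots on each RQ array, the replicate spread is poorly known. The size of the RQ minus WT change, unlike its direction, moved with the background method.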
